A study of Homo sapiens with 12 samples.

Results

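The 10 genes described here encode alpha tubulin (TUBA1A, TUBA1B, TUBA1C and TUBA4A) and beta tubulin (TUBB, TUBB2A, TUBB2B, TUBB3, TUBB4B and TUBB6). They were chosen by name, as tubulin mRNAs under translation-coupled autoregulation, and the rule uses no measured value, although earlier results of these data were known when it was set. Their names match 11 of the 20212 rows of the deposited count table, because TUBB3 stands there with 2 gene identifiers. Of the 11 rows, 10 passed a minimum of 10 counts summed over the ribosome footprint (RF) libraries and of 10 summed over the total RNA libraries, as did 13329 rows in all. The row that failed, ENSG00000198211, is a read-through gene model on chromosome 16 that carries the TUBB3 name. It had 0 RF counts in each of the 6 RF libraries and 228 to 304 RNA counts in the 6 RNA libraries.

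The study asked how rapamycin, an inhibitor of the mTOR kinase, alters translation in PANC-1, a human pancreatic ductal carcinoma cell line. Cells were treated with DMSO, the solvent, in 3 cultures or with 50 nM rapamycin for 60 min in 3 cultures, with no other agent or allele in any group. RF and total RNA were sequenced from each culture, giving 12 libraries. All libraries come from a single line, and nothing in the sources used here says how far apart in time the cultures were grown, so p-values measure the spread between these cultures. The RF libraries held 278835 to 1574723 counts and the RNA libraries 78081241 to 94293744. The smallest RF libraries were DMSO culture 1 and rapamycin culture 3. DMSO cultures 1 and 2 had 16840 and 16858 genes detected in RNA, against 19751 to 19847 in the other 4 cultures. The keratins of duct epithelium were high in DMSO RNA, with KRT8 at 1739, KRT18 at 1594 and KRT19 at 1372 FPKM, the number of fragments scaled by transcript length and library size. The acinar list summed to between 0 and 0.177 FPKM over the 6 RNA libraries, with CTRB1 at 0. The leukocyte list summed to 69.5 to 88.9 FPKM, nearly all of it CD68, while PTPRC stood at 0.0758 FPKM in DMSO. The fibroblast list summed to 0.957 to 2.03 FPKM.

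Alpha and beta tubulin fold with the help of chaperones and pair into the dimer from which microtubules grow. Cells hold the pool of free dimers steady by autoregulation. When free dimers accumulate, TTC5 binds the first residues of nascent alpha or beta tubulin as they leave the ribosome, and together with SCAPER it brings the CCR4-NOT deadenylase to the mRNA, which is then degraded. The mRNA is degraded only while it is being translated, so ribosome occupancy and mRNA level of these genes are linked in a way that most genes are not.

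The sequences below show where autoregulation reads the nascent chain, at the start of each coding sequence. TTC5 recognises methionine, arginine, glutamate and then cysteine in alpha tubulin or isoleucine in beta tubulin. On the GRCh37 build, the alpha genes lie at chr12:49578469-49582863 on the minus strand (TUBA1A), chr12:49521565-49525180 on the minus strand (TUBA1B), chr12:49582519-49668383 on the plus strand (TUBA1C) and chr2:220114432-220142624 on the minus strand (TUBA4A). The annotated ends of TUBA1A and TUBA1C overlap on opposite strands. The beta genes lie at chr6:30685212-30693315 on the plus strand (TUBB), chr6:3153731-3157778 (TUBB2A) and chr6:3223558-3231964 (TUBB2B), both on the minus strand, chr16:89987800-90005169 (TUBB3), chr9:140135739-140138159 (TUBB4B) and chr18:12307668-12344319 (TUBB6), all 3 on the plus strand. Each line gives coding bases 1 to 30, 5′ to 3′, with the codons of these 4 residues in capitals.
TUBA1A: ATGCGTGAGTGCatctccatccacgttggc
TUBA1B: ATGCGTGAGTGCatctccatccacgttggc
TUBA1C: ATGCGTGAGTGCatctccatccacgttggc
TUBA4A: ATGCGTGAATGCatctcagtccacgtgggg
TUBB: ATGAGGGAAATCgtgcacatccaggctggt
TUBB2A: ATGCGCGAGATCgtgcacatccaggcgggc
TUBB2B: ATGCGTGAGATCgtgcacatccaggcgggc
TUBB3: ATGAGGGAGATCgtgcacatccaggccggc
TUBB4B: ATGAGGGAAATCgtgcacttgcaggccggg
TUBB6: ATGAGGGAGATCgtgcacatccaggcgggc

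The 4 alpha genes place the start codon alone in the first coding exon, which holds 3 coding bases, and the first coding exon of each of the 6 beta genes holds 57. All 10 genes have 4 coding exons and 1335 to 1356 coding bases, the stop codon included. The 30 bases shown for TUBA1A, TUBA1B and TUBA1C are the same, so a footprint of that length over them carries nothing that tells the 3 genes apart.

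Only reads that aligned to a single place in the genome were counted, so the likeness of the genes sets how many footprints each could keep. The coding sequences of TUBA1A and TUBA1B were 97.2% identical, those of TUBA1B and TUBA1C 96.8%, and those of TUBA1A and TUBA1C 95.9%. TUBB2A and TUBB2B, neighbours on chromosome 6, were 98.1% identical. The other pairs within each family were 80.9% to 87.7% identical. The windows below, shown to make this likeness visible, are the 30 coding bases in which the TUBB2 pair differs most, with the differing bases in capitals. They are coding bases 134 to 163, at chr6:3156281-3156310 (TUBB2A) and chr6:3226798-3226827 (TUBB2B), both on the minus strand.
TUBB2A: agagaatcaaCgtGtactacaatgaGgcTG
TUBB2B: agagaatcaaTgtTtactacaatgaAgcCA

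Even this window has only 5 differing positions. Over the whole coding sequence, the share of positions at which a 30-base read occurs once in the genome was 13.2% for TUBA1B, 17% for TUBB2A, 17.8% for TUBB2B, 26% for TUBA1A, 26.5% for TUBA1C and 42.5% for TUBB. The other 4 genes had higher shares, with 67.8% for TUBB3, 74.2% for TUBB4B, 79.2% for TUBA4A and 88.9% for TUBB6. The median of the members was 34.5%, against 98.3% over the 12871 tested genes with a canonical coding sequence, of which 4.42% had a share under 50%. A 30-base word of a member occurred at up to 7 places in the genome for TUBA1A, TUBA1B and TUBA1C and at up to 12 for TUBB2A, TUBB2B and TUBB4B, and tubulin genes have processed pseudogenes besides their paralogues. The unique positions were unevenly spread. In TUBB2B they made up 52.4% of the first part of the coding sequence, 0% of the middle part and 0.917% of the last part, the 3 parts being of equal length, and 1029 positions in a row had none. In TUBA1C they were denser in the last part, at 44.1%, than in the middle part, at 13.9%. The countable coding positions of TUBB2A and TUBB2B thus lay mostly in the 5′ part. RNA reads also cover the untranslated regions. Over the exons of all annotated transcripts, retained-intron ones included, the unique share was 67.5% for TUBA1B, 70.3% for TUBA1A and 69.9% for TUBA1C. This share too is for 30-base words, whereas the RNA reads were paired-end. RF and RNA counts of a gene thus need not lose reads to the same degree.

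**Figure D1:**
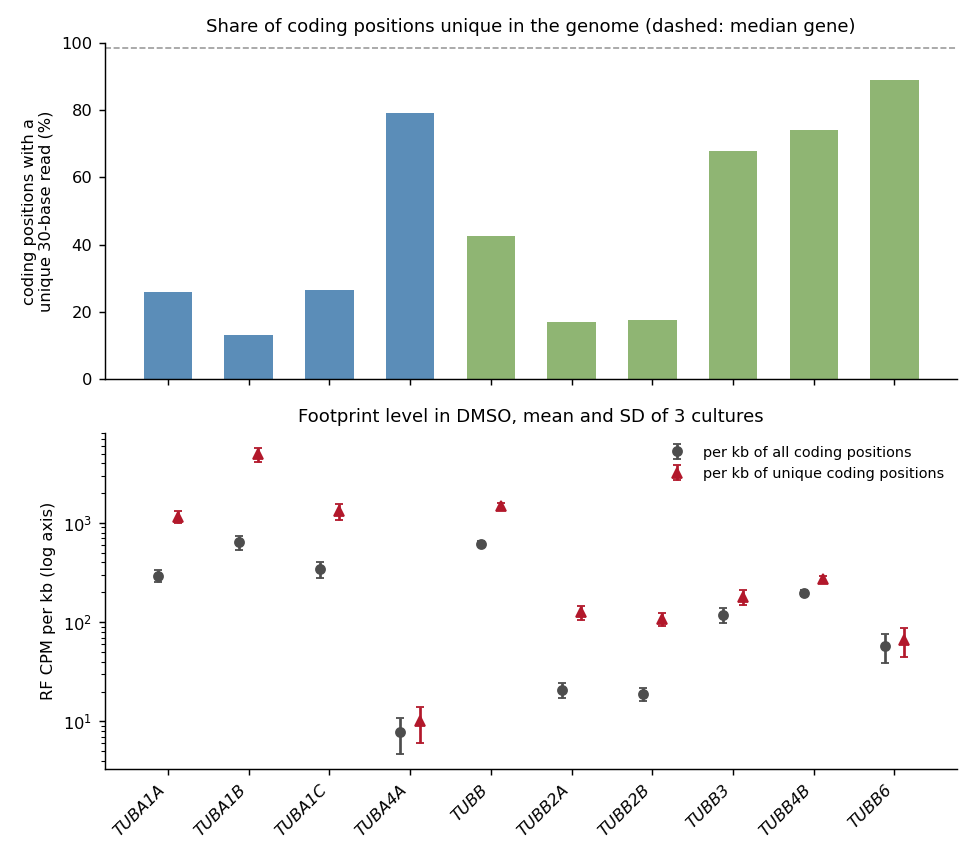
Top, bars give the share of coding positions (percent) at which a 30-base read occurs once in GRCh37, for alpha tubulins in blue and beta tubulins in green, with the median gene at 98.3% dashed. Bottom, RF CPM (counts scaled to library size) per kilobase on a log axis in the 3 DMSO cultures, as mean and SD, per kilobase of all coding positions (circles) and of unique coding positions (triangles). The RF counts cover all exons of a gene. The shares run from 13.2% in TUBA1B to 88.9% in TUBB6, and the triangle of TUBA1B lies furthest above its circle.

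In total RNA, tubulin mRNA was among the most abundant in these cells, and a single gene led each family. By deposited FPKM in the DMSO cultures (mean ± SD, n = 3), TUBB stood highest at 605 ± 19.5, at the 99.3 percentile of the tested genes. TUBA1B followed at 439 ± 35.2 and TUBA1C at 286 ± 8.21. TUBB4B stood at 174 ± 8.99, TUBB3, an isotype typical of neurons, at 92.5 ± 1.85, TUBB6 at 74.5 ± 0.383 and TUBA1A at 38.9 ± 1.99. The lowest were TUBB2A at 6.45 ± 0.461, TUBA4A at 4.28 ± 0.620 and TUBB2B at 1.91 ± 0.107. No 2 neighbours in this order overlapped in the 3 DMSO cultures. TUBB held 63.4% and TUBB4B 18.3% of the summed FPKM of the beta members. TUBA1B held 57.2% and TUBA1C 37.2% of that of the alpha members, while TUBA1A held 5.07%. How the FPKM software shared reads among near-identical genes is not given in the sources used here, and it bears most on the TUBA1 and TUBB2 levels.

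In footprints, the levels per length depended on which positions were taken as countable. The counts divided were those over all exons of a gene, untranslated regions included, whichever length was used. Per kilobase of coding sequence, the DMSO means were 636 ± 100 RF CPM for TUBA1B, 619 ± 34.7 for TUBB, 340 ± 62.7 for TUBA1C, 293 ± 41.0 for TUBA1A and 199 ± 13.3 for TUBB4B (SD, n = 3). TUBA1B and TUBB did not differ beyond their spread on this scale, nor did TUBA1C and TUBA1A. Per kilobase of unique coding positions, TUBA1B stood at 4931 ± 777 and TUBB at 1490 ± 83.5, so TUBA1B alone was on top by this measure. TUBA1C (1312 ± 242) and TUBA1A (1152 ± 161) came close to TUBB. Counts outside the coding sequence raise this measure most where unique coding positions are few, and their share was not measured. TUBB3 stood at 178 ± 30.9, TUBB2A at 126 ± 21.0, TUBB2B at 108 ± 16.5, TUBB6 at 65.8 ± 21.2 and TUBA4A at 10.1 ± 4.03 RF CPM per unique kilobase. TUBB2A and TUBB2B overtook TUBB6 once unique positions were used, having stood below it per kilobase of coding sequence at 20.9 ± 3.49 and 18.9 ± 2.87 against 57.2 ± 18.4.

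Fitted changes of tubulin mRNA under rapamycin were small, from -8.23% for TUBA1C to 2.45% for TUBA4A. No member passed an adjusted p of 0.05 in total RNA, as was the case for 0% of all genes in either direction (edgeR quasi-likelihood test, Benjamini-Hochberg adjusted over 13329 genes, where 442 genes above DMSO, 3.32%, and 334 below it had an unadjusted p under 0.05). The fitted change was below 0 for 8 of the 10 members, a sign found in 46.8% of all genes, and ran from -0.12 to 0.03 on the log2 scale, with a median of -0.03 against 0.01 over all genes. TUBA1C was the 1 member with an unadjusted p under 0.05 in RNA, which 2.51% of all genes had in that direction. Values below are CPM after TMM scaling, given for cultures 1, 2 and 3 in order. They are relative to each library, so a change shared by all mRNAs does not show, and in bulk cells fewer expressing cells cannot be told apart from less RNA per cell.

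TUBB, the main beta tubulin mRNA, stood at 1029, 1125 and 1062 RNA CPM in DMSO and at 1052, 1029 and 1061 in rapamycin. TUBA1B, the main alpha tubulin mRNA, stood at 969, 1060 and 1003 in DMSO and at 972, 940 and 992 in rapamycin. For both genes the treatments overlapped and DMSO culture 2 was the highest of all 6. The fitted change was -2.32% for TUBB (95% interval -7.85 to 3.55%) and -4.22% for TUBA1B (-9.91 to 1.83%).

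TUBA1C RNA stood at 276, 291 and 275 CPM in DMSO and at 265, 244 and 264 CPM in rapamycin. All 3 rapamycin values lay below the 3 DMSO values, a pattern that 6.61% of all genes showed in this direction. The fitted change was -0.12 (log2, SE 0.040), or -8.23% with an interval of -13.8 to -2.36% (unadjusted p = 0.0117, adjusted p = 0.766). TUBA1A RNA stood at 81.2, 88.5 and 85.2 CPM in DMSO and at 80.8, 80.0 and 82.8 in rapamycin, an overlap, with a fitted change of -4.44% (-10.1 to 1.53%). Fitted on FPKM in place of counts, the TUBA1A change was above 0, at 0.076 to 0.078 (log2, limma), and 6 of the 10 members then lay below 0.

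The other beta tubulins were as level. TUBB4B RNA stood at 270, 285 and 283 CPM in DMSO and at 276, 266 and 283 in rapamycin. TUBB3 RNA stood at 168, 170 and 176 CPM in DMSO and at 173, 169 and 180 in rapamycin. TUBB6 RNA stood at 136, 132 and 132 CPM in DMSO and at 133, 129 and 131 in rapamycin. The treatments overlapped in all 3 genes, and the fitted changes were -1.40% (-6.67 to 4.17%), 1.72% (-3.64 to 7.37%) and -1.82% (-6.42 to 3.01%). The low mRNAs of TUBB2A (16.7 to 18.8 CPM over the 6 libraries), TUBB2B (6.76 to 8.22) and TUBA4A (6.75 to 7.41) overlapped too, with wider intervals. The interval was -9.16 to 9.56% for TUBB2A, -17.0 to 4.91% for TUBB2B and -7.48 to 13.4% for TUBA4A. TUBA4A also overlaps TUBA4B on the other strand, and whether reads were counted by strand is not given in the sources used here.

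**Figure D2:**
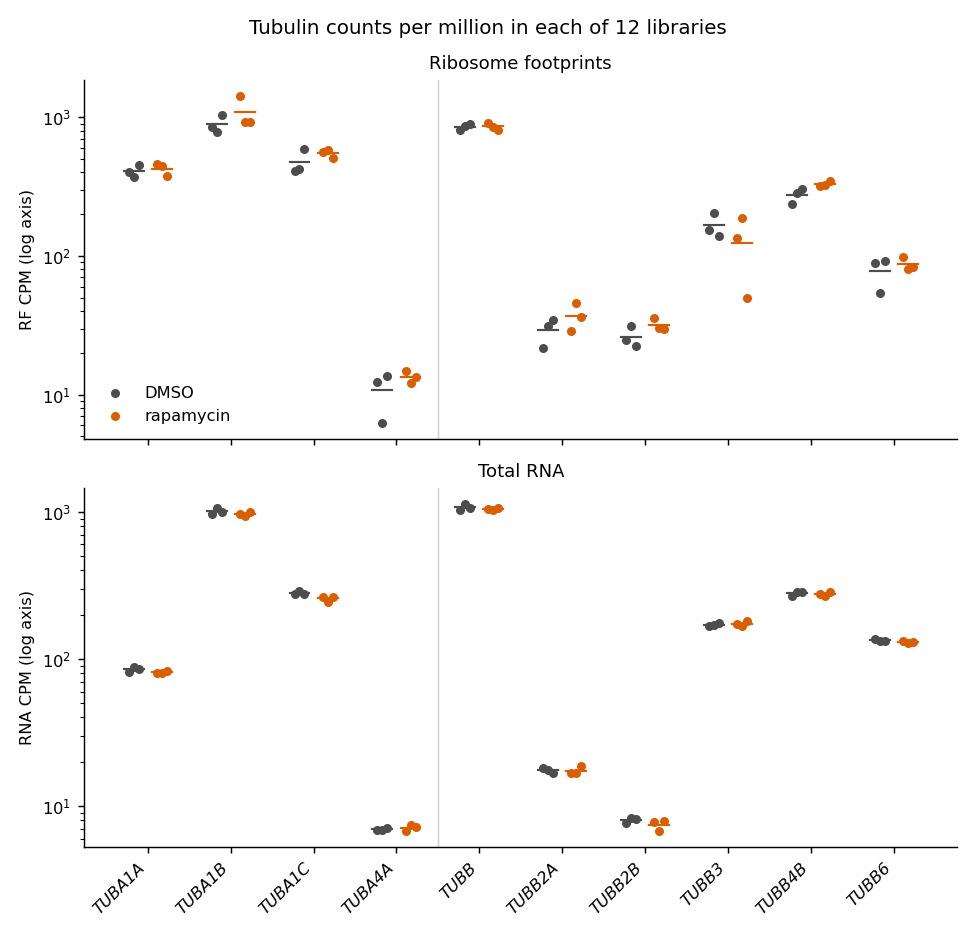
CPM of each tubulin (log axis) in the 6 RF libraries (top) and the 6 RNA libraries (bottom), with DMSO in grey, rapamycin in orange, a point per culture in the order 1, 2, 3 and a bar at the mean. The RNA points of a gene sit close together, whereas the RF points of some genes spread, with TUBB3 in rapamycin culture 3 at 49.9 CPM.

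Footprints on tubulin mRNAs spread widely between cultures of the same treatment. No member passed an adjusted p of 0.05 in RF, and 0% of all genes did in either direction (edgeR). Unadjusted, 234 genes (1.76%) above DMSO and 256 (1.92%) below it had a p under 0.05, and 0 members did. The fitted change was above 0 for 9 of the 10 members, a sign found in 51.3% of all genes, with a median of 0.23 against 0.02 over all genes (log2). TUBB4B was the 1 member whose rapamycin values all lay above the DMSO values, which 5.24% of all genes showed.

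Among the alpha tubulins, TUBA1B stood at 846, 787 and 1039 RF CPM in DMSO and at 1422, 920 and 931 in rapamycin. Rapamycin culture 1 was the highest, and the other rapamycin cultures lay within the DMSO range. The fitted change was 0.29 (log2, SE 0.22, interval -0.17 to 0.76), and it was 0.06 without rapamycin culture 1. TUBA1C stood at 412, 426 and 590 RF CPM in DMSO and at 566, 582 and 512 in rapamycin. DMSO culture 3 was the highest of the 6, so the treatments overlapped, with a fitted change of 0.22 (SE 0.22, interval -0.24 to 0.67). TUBA1A stood at 406, 369 and 453 RF CPM in DMSO and at 458, 447 and 376 in rapamycin, with a fitted change of 0.06 (SE 0.21). TUBA4A rested on few reads, 4, 5 and 20 in the DMSO cultures and 18, 10 and 4 in those given rapamycin. Its interval of -1.50 to 2.16 (log2) says that at this depth even a change of several fold was not detectable.

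Among the beta tubulins, TUBB stood at 809, 860 and 895 RF CPM in DMSO and at 910, 856 and 808 in rapamycin. The treatments covered nearly the same range, with a fitted change of 0.41% and an interval of -23.9 to 32.5%. TUBB4B, a ubiquitous isotype, stood at 237, 285 and 306 RF CPM in DMSO and at 318, 323 and 346 in rapamycin. The lowest rapamycin culture lay just above the highest DMSO culture, and the fitted change was 0.25 (log2, SE 0.22, adjusted p = 0.9999). TUBB3 stood at 154, 205 and 139 RF CPM in DMSO and at 135, 188 and 49.9 in rapamycin. The low value rested on 15 counts in the smallest library, and the fitted change of -0.38 (SE 0.37) became -0.04 without that culture. TUBB6 stood at 89.2, 54.0 and 91.7 RF CPM in DMSO and at 97.8, 81.1 and 83.2 in rapamycin, where DMSO culture 2 was the low one. TUBB2A had RF counts of 7, 25 and 51 under DMSO and of 35, 38 and 11 under rapamycin. TUBB2B had 8, 25 and 33 under DMSO and 43, 25 and 9 under rapamycin. Both overlapped between treatments when scaled, with fitted changes of 0.32 (SE 0.53) and 0.30 (SE 0.55).

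**Figure D3:**
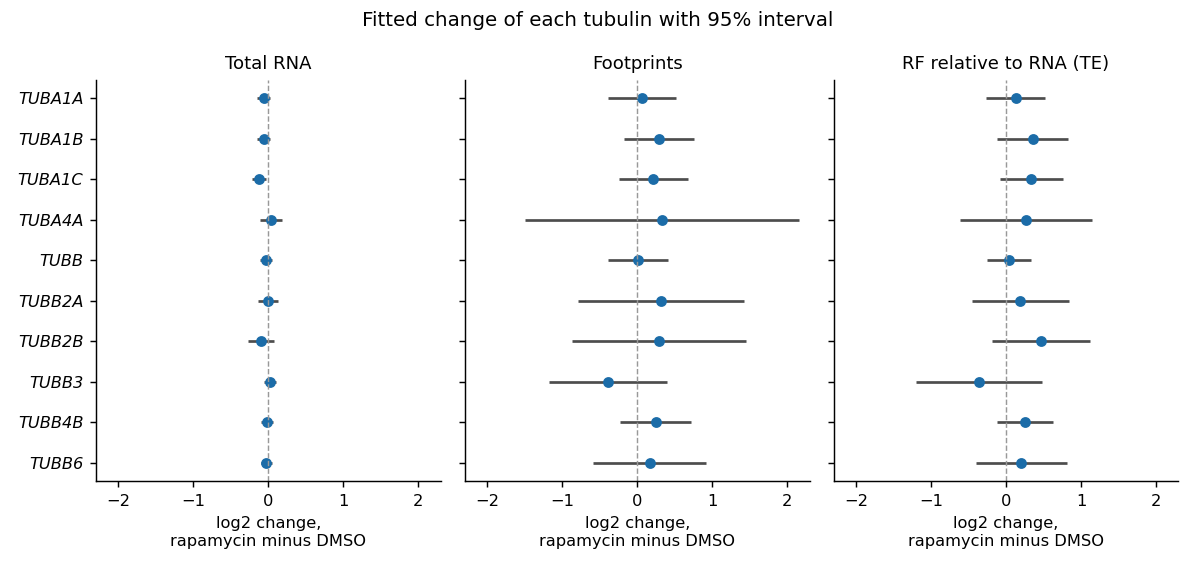
Fitted log2 change (rapamycin minus DMSO) of the 10 tubulins in total RNA, in footprints and in footprints relative to RNA (TE), with 95% intervals as lines and 0 dashed. The RNA intervals are narrow, the footprint interval of TUBA4A is the widest, and of the 30 intervals the RNA interval of TUBA1C alone excludes 0.

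Translational efficiency (TE), the RF level relative to the RNA level, was fitted in a single model of all 12 libraries. The model held library type, treatment and their interaction, with no term for culture. It thus did not pair the RF and RNA libraries of a culture, which only the per-culture values of log2 TE do. The model gives each gene a single measure of spread for both library types, although RF spread more than RNA. TE standard errors can therefore be too small. The SE (log2) of TUBB was 0.14 in TE against 0.19 in RF alone, and that of TUBB2B 0.30 against 0.55. TUBB3 went the other way (0.39 against 0.37), and TUBA1B was level (0.22 in both). No member passed an adjusted p of 0.05, and 0% of all genes did in either direction (edgeR). Unadjusted, 823 genes (6.17%) above DMSO and 856 (6.42%) below it had a p under 0.05, and 0 members did. The fitted change was above 0 for 9 of the 10 members, a sign found in 46.3% of all genes, with a median of 0.23 against -0.06 over all genes (log2). Without DMSO culture 2 it was below 0 for 3 of the 10. The members were measured in the same 6 RF libraries, so their signs are not independent. TUBB2B and TUBB4B had all 3 rapamycin cultures above the 3 DMSO cultures, which 4.62% of all genes showed.

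Per culture, log2 TE of TUBB4B was -0.15, 0.02 and 0.12 in DMSO and 0.21, 0.29 and 0.32 in rapamycin. All 3 rapamycin cultures lay higher, and the fitted change was 0.25 (SE 0.17, interval -0.12 to 0.63, adjusted p = 0.582). Log2 TE of TUBB2B was 1.995, 2.04 and 1.54 in DMSO and 2.26, 2.27 and 2.21 in rapamycin, on the few counts given above. Its fitted change was 0.46 (SE 0.30, interval -0.19 to 1.11, adjusted p = 0.560), and it was 0.23 without DMSO culture 3 (adjusted p = 0.740). TUBA1C gave 0.60, 0.56 and 1.10 in DMSO and 1.10, 1.26 and 0.98 in rapamycin, where only DMSO culture 3 reached the rapamycin range. Its fitted change was 0.34 (SE 0.20, adjusted p = 0.500), and it ran from 0.22 without DMSO culture 2 (adjusted p = 0.685) to 0.52 without DMSO culture 3 (adjusted p = 0.121). TUBA1B gave -0.19, -0.43 and 0.05 in DMSO and 0.55, -0.03 and -0.08 in rapamycin. Its fitted change of 0.36 (SE 0.22, adjusted p = 0.533) was 0.12 without rapamycin culture 1.

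TUBB gave log2 TE of -0.34, -0.38 and -0.24 in DMSO and -0.21, -0.26 and -0.38 in rapamycin, and it had the narrowest interval of the 10, from -16.0 to 25.9% around a fitted change of 2.80%. These bounds can be too narrow, because the model shares a measure of spread between library types. The interval of TUBB in RF alone was -23.9 to 32.5%. TUBA1A gave 2.34, 2.07 and 2.42 in DMSO and 2.51, 2.49 and 2.21 in rapamycin, with a fitted change of 0.13 (SE 0.18). TUBB3 gave -0.07, 0.29 and -0.32 in DMSO and -0.34, 0.17 and -1.67 in rapamycin. Its fitted change, -0.36 (SE 0.39, adjusted p = 0.748), was -0.05 without rapamycin culture 3. TUBB6, TUBB2A and TUBA4A overlapped between treatments, with fitted changes of 0.20 (SE 0.28), 0.19 (SE 0.30) and 0.26 (SE 0.41).

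**Figure D4:**
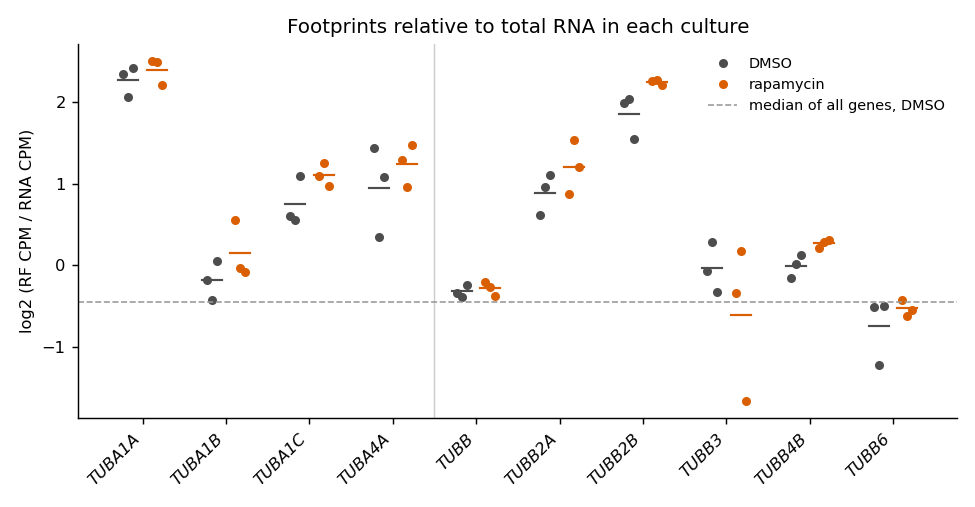
Log2 of RF CPM over RNA CPM for each tubulin in the 6 cultures, DMSO in grey and rapamycin in orange, with a bar at each mean and the DMSO median of all genes with a canonical coding sequence (-0.45) dashed. TUBA1A and TUBB2B stand highest in both treatments, and the rapamycin points of TUBB4B and TUBB2B lie above their DMSO points.

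The members differed more in TE from each other than any of them did between treatments. In DMSO, mean log2 TE was 2.28 ± 0.18 for TUBA1A and 1.86 ± 0.27 for TUBB2B, at the 82.7 and 81.0 percentiles of all genes. TUBA1C stood at 0.75 ± 0.30, TUBA1B at -0.19 ± 0.24 and TUBB at -0.32 ± 0.071, the last at the 53.7 percentile. TUBB6, whose coding sequence is the most unique of the 10, was the lowest at -0.75 ± 0.42, at the 41.2 percentile. Of the 569 tested genes with fewer than 50% unique coding positions, 46.2% lay below the median TE of all genes. These differences between genes rest on RF and RNA counts that keep different parts of each mRNA, and the part this plays was not tested.

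Counts were also summed over each family. Reads that fit several genes are missing from the sums too. The 4 alpha tubulins together held 1787 ± 271 RF CPM in DMSO and 2085 ± 332 in rapamycin (SD, n = 3), a ratio of 1.17 with overlapping cultures. The 6 beta tubulins together held 1430 ± 83.4 RF CPM in DMSO and 1468 ± 98.5 in rapamycin, a ratio of 1.03. In RNA the ratios were 0.9498 for alpha and 0.983 for beta, also with overlap. As plain shares of each library, without TMM scaling, the RF cultures did not overlap. All 10 members took 0.323%, 0.276% and 0.335% of the RF libraries of the DMSO cultures, against 0.383%, 0.363% and 0.344% after rapamycin. The alpha members took 0.180%, 0.143% and 0.196% in DMSO and 0.236%, 0.204% and 0.198% in rapamycin, and the beta members 0.143%, 0.132% and 0.139% against 0.147%, 0.159% and 0.146%. The separation of the sums thus depended on the scaling. It was given no test, and no share of all genes that separate without TMM scaling stands beside it. In RNA all 10 members took 0.303% in DMSO and 0.295% in rapamycin.

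TTC5 and SCAPER, which act first in autoregulation, were thinly covered by footprints. Of the 14 genes listed, 0 passed an adjusted p of 0.05 in TE, as was the case for all genes tested. An unadjusted p under 0.05 was found for 3, all of them below DMSO (edgeR), against 6.42% of all genes in that direction. The median change was -0.12 (log2). TTC5, the factor that reads the nascent tubulin chain, had 0, 17 and 16 footprints under DMSO and 0, 2 and 1 under rapamycin. Over the summed libraries that is 33 against 3 counts, a ratio of 0.108 with a counting interval of 0.0211 to 0.344, and the adjusted p was 0.231 in TE. The treatments overlapped because a library in each had no count. TTC5 RNA changed by -0.02 (log2, unadjusted p = 0.765). SCAPER, its partner, had 0, 3 and 44 footprints under DMSO and 1, 7 and 2 under rapamycin, so a single library held most of them (adjusted p = 0.372). CNOT7, a deadenylase subunit, had 2, 5 and 9 counts in DMSO and 0, 1 and 0 in rapamycin (16 against 1, ratio 0.0741, counting interval 0.00177 to 0.477, adjusted p = 0.231). CNOT11, a subunit through which CCR4-NOT is recruited, had 16, 2 and 66 counts in DMSO and 74, 29 and 26 in rapamycin, with a fitted TE change of 0.87 (SE 0.69, adjusted p = 0.637). CNOT10 had a fitted TE change of 1.09 (SE 0.56, adjusted p = 0.446). Intervals on summed counts cover counting error only.

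The chaperones and cofactors that fold tubulin also gave 0 calls, as did all 13329 genes tested, so this is not particular to them. Over all genes, 46.3% had a fitted TE change above 0. Of the 8 subunits of TRiC, the chaperonin that folds tubulin and actin, 2 had a fitted TE change above 0 and 6 below, with 0 called and a median of -0.07. CCT8 was at 0.32 (SE 0.25), CCT3 at 0.03 (SE 0.16), CCT2 at -0.22 (SE 0.17) and CCT7 at -0.27 (SE 0.21). In RNA all 8 subunits had fitted changes below 0, from -0.07 to -0.02, a sign found in 46.8% of all genes, and again 0 were called. Of the 6 subunits of prefoldin, which hands nascent chains to TRiC, 4 lay above 0 and 2 below, with a median of 0.19 and 0 called, from VBP1 at -0.25 (SE 0.26) and PFDN4 at -0.29 (SE 0.34) to PFDN2 at 0.27 (SE 0.39) and PFDN5 at 0.29 (SE 0.25). Of the 8 genes listed under folding cofactors, 3 lay above 0 and 5 below, with a median of -0.14 and 0 called. TBCE, the cofactor of alpha tubulin, had a fitted change of -0.86 (SE 0.41, adjusted p = 0.405), and TBCCD1 one of -1.70 (SE 0.90) on 22 footprints under DMSO and 6 under rapamycin. TBCB was at 0.23 (SE 0.35) and TBCD at 0.09 (SE 0.36).

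The enzymes that modify tubulin and the proteins that bind microtubules showed 0 calls as well, like all genes tested. Among 17 tested genes of tubulin modification the median TE change was 0.14. AGBL5, which removes glutamates from tubulin, had 3 footprints under DMSO and 18 under rapamycin (ratio 7.11, counting interval 2.08 to 37.7, adjusted p = 0.254), and ATAT1, the acetylase of alpha tubulin, had a fitted change of 1.44 (SE 0.80). AGTPBP1, which also removes glutamates, was at -1.40 (SE 0.96) and the glutamylase TTLL5 at -0.62 (SE 0.40). Among the 20 microtubule-binding genes the median was -0.16. MAP7D1 was at 1.01 (SE 0.46, adjusted p = 0.387) with its rapamycin cultures above those of DMSO, MAP1S at 0.80 (SE 0.49), MAP4 at -0.51 (SE 0.25, adjusted p = 0.428) and MAP1A at -1.91 (SE 1.06).

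The other tubulins had few footprints, apart from TUBG1. Of 12 listed, 10 were tested, 0 were called, as was the case for all genes, and the median TE change was -0.40. TUBG1, the gamma tubulin of microtubule nucleation, had 8 to 108 RF counts and a fitted change of 0.25 (SE 0.44), and TUBE1 one of 0.26 (SE 0.50). TUBB4A was at -1.59 (SE 0.78, adjusted p = 0.421), on an RNA change of 1.23 (unadjusted p = 0.119). TUBA3C had 10 footprints under DMSO and 3 under rapamycin (ratio 0.356, counting interval 0.0629 to 1.38). Low RNA levels such as these are where the smaller number of detected genes in DMSO cultures 1 and 2 falls, and its part in the RNA change was not tested.

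**Figure D5:**
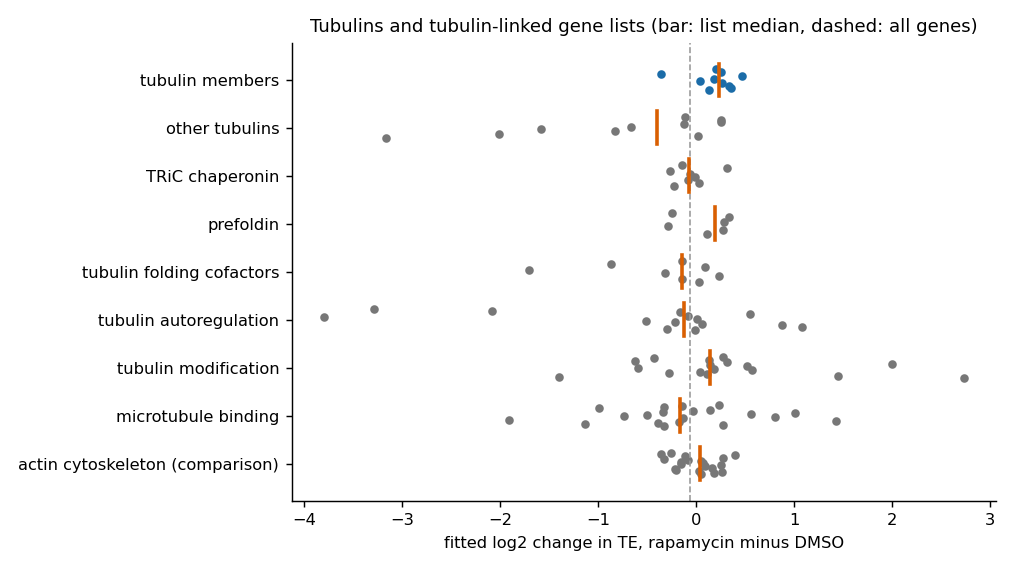
Fitted log2 TE change of each tested gene, a point per gene, for the 10 tubulins in blue and 8 other gene lists in grey, with an orange bar at the list median and the median of all genes (-0.06) dashed. The tubulins lie between -0.36 and 0.46 with a median of 0.23, and the widest scatter belongs to lists with few footprints.

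Over the 6 RF libraries, the mean centred log2 RF CPM of the 7 members with at least 10 counts in every library was highest in rapamycin culture 1 (0.17) and lowest in rapamycin culture 3 (-0.18), so it did not follow treatment. Among 3304 genes with as many counts, the non-members most like this profile were ACTN4 (Pearson r = 0.98), CANT1 (0.97), MCRS1 (0.97), CYCS (0.96) and LMNB1 (0.95). ACTN4 crosslinks actin filaments, CYCS is cytochrome c and LMNB1 is lamin B1. The members themselves ranged from 0.95 for TUBA1A to 0.15 for TUBB4B. The correlations are over 6 libraries that differ in depth, the members helped to make the profile, and the 5 genes were picked from 3304 for their high r.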

How the data were processed

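Per the labels and methods, the authors removed ribosomal RNA reads, aligned RF and paired-end RNA reads to GRCh37 with HISAT2, kept unique alignments and counted exons of protein-coding genes with featureCounts. They deposited these raw counts, and gene and isoform FPKM values of the RNA libraries from Cufflinks 2.2.1. The deposited columns of TE, fold change and p-values hold the study's own comparison and were not used. Members and gene lists were chosen with earlier results of these data known. The named genes are all members and, of each other list, the 2 with the smallest TE p in each direction, plus TTC5, SCAPER and CNOT11. CPM used TMM scaling within each library type. RF, RNA and their interaction (TE) were tested with edgeR 4.0.16 (robust quasi-likelihood), tested on simulated data, and log2 TE used a prior count of 2. RiboDiff, the study's tool, was not run. A coding position was called unique where its 30-base word (26 and 34 bases as alternatives) occurred once in GRCh37 or, across a junction, in no other coding sequence. Coding sequences follow the canonical transcripts of a GENCODE annotation of that build. Other alternatives were DESeq2 1.42.0, limma 3.58.1, other filters and scalings, and each culture left out.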

Additional observations from a re-analysis of the deposited data

How the results depend on the processing

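No member was called in TE, RF or RNA under any alternative that was run. The smallest adjusted p of a member was 0.121 in TE, 0.859 in RF and 0.199 in RNA (edgeR), each for TUBA1C without DMSO replicate 3. Of the member values under alternatives, 5 of 130 in TE, 4 of 110 in RF and 12 of 140 in RNA had the opposite sign to the reported value. With TMM over all libraries the TE change of TUBB was -0.037, and that scaling moved the median TE change of all genes from -0.06 to -0.14. In RNA, TUBA1A was at 0.078 by limma-trend on log2(FPKM + 0.1), and also on log2(FPKM + 1) with and without a minimum FPKM (0.076 in both). TUBB2A was at 0.0089 with at least 60 counts, at 0.016 on log2(FPKM + 0.1) and at 0.014 on log2(FPKM + 1) with and without the minimum. Leaving out each culture in turn, TE changes ran from -0.0032 to 0.089 for TUBB, from -0.089 to 0.43 for TUBB2A and from -0.011 to 0.39 for TUBB6. RF changes ran from -0.018 to 0.14 for TUBA1A, from -0.039 to 0.047 for TUBB and from -0.055 to 0.29 for TUBB6. RNA changes ran from -0.064 to 0.0035 for TUBB, from -0.062 to 0.026 for TUBB2A and from -0.046 to 0.0041 for TUBB4B. The RF ratio of the summed beta members, an alternative added after seeing the data, ran from 0.993 to 1.07, and the other 3 sums kept their side of 1.

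Counts over all genes were 0 in every comparison as reported and moved more. DESeq2's Wald test called 688 genes higher and 619 lower in TE, 4 and 1 in RF, and 25 and 4 in RNA, no member among them. Without the low-count filter RF gave 10 higher and 10 lower. The FPKM fits of RNA gave 1 higher and 2 lower on log2(FPKM + 1), 1 and 3 on log2(FPKM + 0.1), and 2 and 3 without a minimum. Over the 6 fits without a culture, the counts ran from 0 to 65 higher and from 0 to 331 lower in TE, from 0 to 5 and from 0 to 1 in RF, and from 0 to 683 and from 0 to 4 in RNA, with the extremes of TE and RNA reached without DMSO replicate 3. With the replicate number as a block, 1 gene was called higher and 0 lower in TE, 4 higher and 2 lower in RF, and 0 in RNA, again with 0 members. The numbers mark no shared animal, day or batch in the labels, and same-numbered cultures did not deviate together (r from -0.21 to -0.058 in RF and from -0.22 to -0.099 in RNA), so the block stays an alternative.

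RF levels per length used 30-base words. With words of 26 and 34 bases, and over all exonic positions, TUBA1B stayed the highest. The biological coefficient of variation, the spread beyond counting error, was 54.9% in RF and 5.31% in RNA.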

Other observations

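Isoform FPKM of the RNA libraries showed a single transcript carrying most of each abundant tubulin. In DMSO the main transcript held 95.3 ± 0.381% of the matched FPKM of TUBB, 96.8 ± 0.967% of TUBB3, 97.2 ± 0.148% of TUBB4B, 90.3 ± 0.993% of TUBA1B and 94.9 ± 0.113% of TUBA1C (SD, n = 3). The matched isoforms of TUBB held only 86.3% of its gene FPKM, against 99.7% for TUBB3, so the TUBB share is of a part. TUBB6 (75.4 ± 2.13%) and TUBA1A (57.5 ± 4.51%) were more divided, and the main transcript of TUBA4A held 45.4 ± 12.7%. In TUBA1C the share of the main transcript was 96.3 ± 0.326% in rapamycin, above DMSO in all 3 cultures, and that of TUBA1C-204 was 3.28 ± 0.356% against 4.58 ± 0.285%, below DMSO in all 3. In TUBB4B the retained-intron transcript held 2.31 ± 0.399% in rapamycin and 2.79 ± 0.148% in DMSO, again without overlap. In TUBA4A, a low mRNA, TUBA4A-203 held 24.7 ± 4.54% in rapamycin and 5.02 ± 8.69% in DMSO, without overlap. Over the members, 5 of 34 isoforms with a mean share of at least 1% did not overlap between treatments (14.7%), against 9.58% of such isoforms of all tested genes. A share rises only as others of the same gene fall, so these 5, all in TUBA1C, TUBA4A and TUBB4B, are not independent. Genes with a single such isoform were kept in both counts. These shares are estimates from software and were given no test.

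The actin cytoskeleton, another abundant filament family whose proteins TRiC folds in part, lay close to 0. Of its 20 genes, 11 had a fitted TE change above 0, a sign found in 46.3% of all genes, and 9 below. The median was 0.04 and 0 were called, as in all genes. ACTB was at 0.05 (SE 0.12) and ACTG1 at 0.18 (SE 0.14), both named after their values were seen. The genes with the smallest p were TPM3 at 0.40 (SE 0.21, adjusted p = 0.445), TMSB4X at 0.27 (SE 0.16, adjusted p = 0.503), TMSB10 at -0.33 (SE 0.20, adjusted p = 0.531) and VCL at -0.25 (SE 0.18, adjusted p = 0.587). The rapamycin cultures of TPM3 and TMSB4X lay above those of DMSO. In RNA, 16 of the 20 had fitted changes below 0, a sign found in 46.8% of all genes, with a median of -0.03, the same median as the tubulins.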
